A study of Homo sapiens with 3 samples.

Results

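Cadherins are calcium-dependent adhesion proteins that hold neighbouring cells together through repeated domains outside the cell. Classical cadherins tie these contacts to actin through catenins bound to their tails, and desmosomal cadherins tie them to keratin filaments through plakoglobin, plakophilins and desmoplakin. Protocadherins share the outer repeats but have other tails, and many are best known from the nervous system. Liver epithelial cells carry both E-cadherin (CDH1) and N-cadherin (CDH2), and the balance of cadherins is often read as a sign of epithelial or mesenchymal character.

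The genes described here were 10 members of this superfamily, of 19775 genes with a probe set of their own: CDH1, CDH2, CDH3, CDH6, CDH11, CDH17, PCDH1, PCDH7, PCDH9 and the desmosomal cadherin DSC2. They were chosen with their signals on these arrays known, so their values are given as a description. All 31 probe sets annotated to them were used, and none was shared with another gene.

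The samples were 3 total RNA preparations of MHCC97Low, a human metastatic hepatocellular carcinoma line. They were the parental line, a subline resistant to cisplatin, MHCC97L/CisR, called CisR below, and one resistant to doxorubicin, MHCC97L/DoxR, called DoxR below, with 1 Affymetrix U133 Plus 2.0 array each. All were kept in DMEM with serum and listed as untreated. The dose and length of drug selection, and whether a subline is 1 clone, are not given in the sources used here. No line was measured more than once, so there is no spread between cultures to hold a difference against, and no test was possible. Cisplatin crosslinks DNA, and doxorubicin poisons topoisomerase II.

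Signals are MAS5 values on a linear scale, and values up to 76.9, the median of all values, were treated as a floor below which differences have no order. A gene was read from the probe set with its highest mean log2 signal and called at 2-fold in either direction. "At least" is written where the dimmer array was not above the floor. Levels are compared only within a probe set, across arrays, since different probe sets bind with different strength. Because the signal comes from whole cultures, fewer expressing cells and less RNA per cell cannot be told apart.

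The median signal was 73.3 to 79.2 over the 3 arrays, and 11879 to 12107 genes lay above the floor. The spread of log2 differences over all compared genes, as an SD from the median absolute deviation, was 0.37 for each subline against parental. It was 0.47 and 0.49 in the dimmest of 3 equal gene groups for CisR and DoxR, and 0.28 in the brightest for both. Of 10 hepatocyte markers 8, 7 and 6 were above the floor in the parental, CisR and DoxR arrays. Their summed signal was 11290, 1326 and 4964. Of 9 compared in CisR 7 were at least 2-fold lower than parental and none was as far higher. Of 8 compared in DoxR 3 were at least 2-fold lower, TF, FGB and FGG, and 1 was as far higher, albumin (ALB). Over all compared genes 2.58% were at least 2-fold lower in CisR and 2.74% in DoxR. ALB read 1545, 3.17 and 3115 by its representing probe set. Its 3 compared probe sets had log2 differences of 0.18 to 1.01 in DoxR. Of 7 simple epithelial markers 6 were above the floor on every array, with sums of 63666, 74141 and 78621, and EPCAM was under it on all. Fibroblast markers were above it for 2, 4 and 2 of 7 genes, with sums of 778, 3387 and 1548. Lumican (LUM) gave most of the sums in the sublines by its representing probe set, at 258, 2632 and 1167, which is 10.2-fold and 4.53-fold higher. Its other probe set was at least 0.065 log2 units higher in CisR and was not compared with parental in DoxR. COL1A1 had log2 differences of 0.73 and -0.35. The endothelial list had 2 of 6 genes above the floor on each array, with sums of 1343, 1133 and 1065. The 2 were PECAM1, at 1052, 802 and 827, and KDR, at 200, 285 and 190. VWF and the endothelial cadherin CDH5 were under the floor throughout, as were all 4 leukocyte markers, whose sums were 167, 180 and 150. The part of these shifts in the cadherin values was not tested.

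Promoter sequences of 5 of the 10 genes were matched by symbol in the RefSeq tables (GRCh38.p14). Of these, DSC2, CDH2 and PCDH7 are shown because DSC2 and CDH2, both on chromosome 18, differed from parental in opposite directions, and PCDH7 was the protocadherin furthest from parental. Each sequence is the 250 bases before the outermost start, 5′ to 3′ on the gene's own strand. Capitals mark CACCTG or CAGGTG, the same E-box read on either strand, which is the element that the CDH1 repressors of the SNAI and ZEB families are known to bind.
DSC2 (chr18:31102422-31102671, minus strand): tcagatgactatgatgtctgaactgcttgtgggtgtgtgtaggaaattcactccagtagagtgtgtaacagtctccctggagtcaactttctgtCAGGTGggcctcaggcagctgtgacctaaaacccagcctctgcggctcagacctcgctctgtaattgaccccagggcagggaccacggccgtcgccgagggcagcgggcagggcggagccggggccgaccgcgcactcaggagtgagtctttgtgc
CDH2 (chr18:28177131-28177380, minus strand): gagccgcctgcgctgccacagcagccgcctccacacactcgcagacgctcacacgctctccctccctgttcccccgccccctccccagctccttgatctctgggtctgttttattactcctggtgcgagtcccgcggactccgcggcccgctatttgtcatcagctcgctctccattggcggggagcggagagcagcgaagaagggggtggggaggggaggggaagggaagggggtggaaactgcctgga
PCDH7 (chr4:30720119-30720368, plus strand): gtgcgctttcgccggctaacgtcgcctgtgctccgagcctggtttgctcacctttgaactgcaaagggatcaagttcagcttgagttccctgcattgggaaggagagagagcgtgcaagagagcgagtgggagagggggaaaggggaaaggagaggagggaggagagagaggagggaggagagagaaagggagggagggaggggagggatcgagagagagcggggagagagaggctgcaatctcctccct
The E-box letters occurred 1 time before the DSC2 start, 156 bases upstream, and not in the windows of CDH2 or PCDH7 shown. Of the matched windows not shown, that of PCDH1, before a start that is not the outermost, held them 1 time, 81 bases upstream. Another DSC2 window, another CDH2 window and the PCDH9 window did not hold them. The E-box letters occurred in 17.5% of 35116 promoter windows of this length. The letters show no binding, which was not measured.

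In the CisR array 2 of 8 compared members, CDH1 and DSC2, were at least 2-fold higher than parental and none was as far lower. Of all 12710 compared genes 5.41% passed 2-fold, 2.83% higher and 2.58% lower. The median log2 difference of the 8 members was -0.21, against 0.02 over all genes. In the DoxR array 3 of 8 members were at least 2-fold higher, CDH6, CDH1 and DSC2, and 1 was as far lower, PCDH7. Of 12605 genes 5.72% passed, 2.98% higher and 2.74% lower. The median was 0.63, against 0.00 over all genes. Between the sublines directly, CDH6, CDH17 and PCDH1 were at least 2-fold higher and PCDH7 as far lower in the DoxR array, 4 of 7 compared members. Of 12604 genes 6.36% passed, 3.05% higher and 3.3% lower. Over single probe sets, 3 of 17 compared ones of the members passed 2-fold in CisR (4.93% of all probe sets with 1 symbol), 7 of 17 in DoxR (5.1%) and 9 of 16 between the sublines (5.59%). These shares used the values by which the genes were chosen and are given with nothing read from them. The comparisons also share arrays, so they are not independent of each other.

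**Figure D1:**
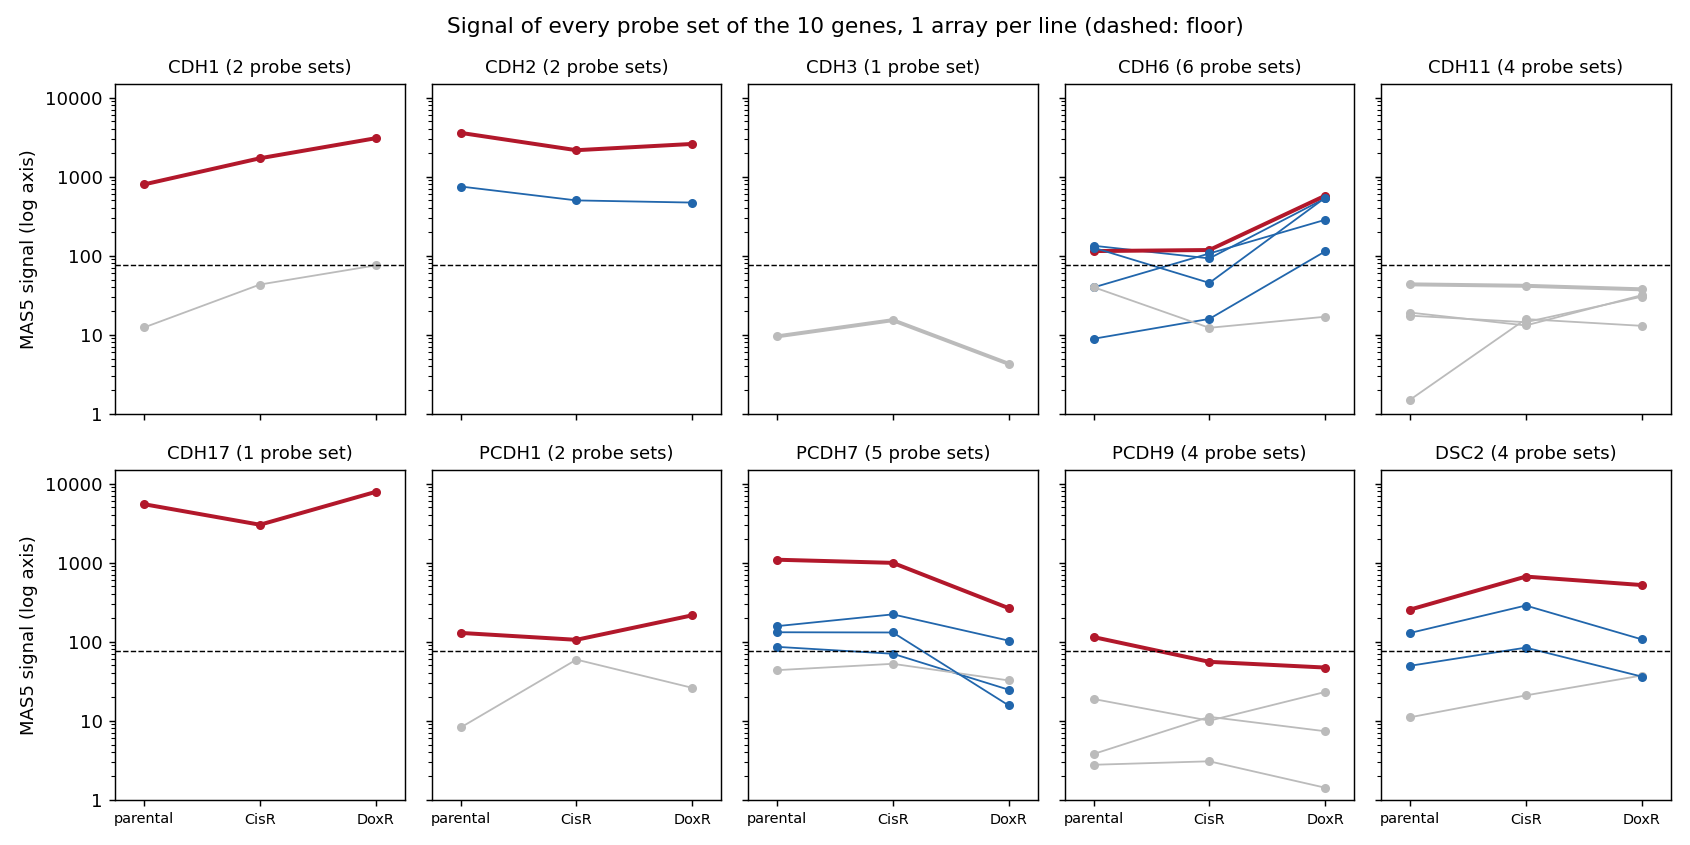
MAS5 signal (log axis) of all 31 probe sets on the parental, CisR and DoxR arrays, 1 panel per gene and 1 line per probe set. Thick lines are the probe sets that represent the genes, blue lines other probe sets above the floor on at least 1 array, grey lines those at or under it on all, and the dashed line is the floor of 76.9. CDH1 is higher in both sublines, CDH6 in the DoxR array, PCDH7 is lower there, and CDH3 and CDH11 stay under the floor.

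Type I classical cadherins. CDH1, or E-cadherin, the main cadherin of epithelial adherens junctions, had a signal of 798 in the parental, 1708 in the CisR and 3062 in the DoxR array by probe set 201131_s_at. The parental array was the lowest and the DoxR array the highest. The folds against parental were 2.14 for the CisR and 3.84 for the DoxR subline. In the former 2.21% and in the latter 0.397% of compared genes were at least as far above parental. The DoxR array was 1.79-fold above the CisR one, under 2-fold. The call rests on 1 probe set, since the other one read 12.4, 43.2 and 75.5 and stayed under the floor on all 3 arrays.

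CDH2, or N-cadherin, which is carried by hepatocytes as well as by neural and mesenchymal cells, had signals of 3577, 2160 and 2591 in the parental, CisR and DoxR arrays. The second probe set read 751, 501 and 470. Both probe sets were lower in both sublines, with log2 differences of -0.73 and -0.58 in the CisR array. They were -0.47 and -0.68 in the DoxR array, so none reached 2-fold. The probe sets gave opposite signs between the sublines, 0.26 and -0.09. CDH3, or P-cadherin, a cadherin of basal epithelia that lies next to CDH1 on chromosome 16, read 9.56, 15.3 and 4.30, all under the floor.

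Of the other type I cadherins listed, CDH15, or M-cadherin of muscle, was compared from a parental value under the floor and was at least 1.10-fold and at least 1.13-fold higher in CisR and DoxR. The 3 compared type I genes thus included 1 past 2-fold in each subline, CDH1.

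Type II classical cadherins. CDH6, or K-cadherin, a cadherin of the developing kidney that is also found in some carcinomas, was measured by 6 probe sets. Its representing probe set, 210601_at, read 115 in the parental, 118 in the CisR and 574 in the DoxR array. The next read 134, 92.6 and 530, and a further one read 126, 45.3 and 540. In each of these the DoxR array was the only one far above the floor.

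The remaining CDH6 probe sets were dimmer. They read 39.8, 107 and 284 for 210602_s_at, 8.91, 15.9 and 113 for 205533_s_at, and 40.1, 12.3 and 16.9 for 232631_at, which stayed under the floor. The 3 probe sets measured on both arrays put the DoxR subline 5.01-fold, 3.96-fold and 4.27-fold above parental. The other 2 gave at least 3.70-fold and at least 1.47-fold, so all 5 compared probe sets pointed the same way. Of all compared genes, 0.159% were at least as far above parental as CDH6. With the floor at the 75th percentile of all values, CDH6 was above it in DoxR alone and its bound was 0.38 log2 units, under 2-fold. In the CisR array the log2 differences ran from -0.72 to 0.47 over 4 compared probe sets, with 2 of each sign, the outermost values limited by the floor.

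CDH11, a mesenchymal cadherin also called osteoblast cadherin, was under the floor in all 4 probe sets on every array, with 43.5, 41.7 and 37.6 in the brightest. Of the 13 type II genes listed, 10 were not compared. The others, besides CDH6, were CDH22 with log2 differences of 0.23 and 0.09 and CDH24 with 0.11 and 0.16 in the CisR and DoxR arrays.

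CDH17. Liver-intestine cadherin has a short tail that does not bind catenins and is known from intestinal epithelium and a share of liver cancers. Its single probe set, 209847_at, had a signal of 5472 in the parental, 3012 in the CisR and 7844 in the DoxR array. The sublines lay on opposite sides of parental, 1.82-fold lower in CisR and 1.43-fold higher in DoxR, each under 2-fold. The DoxR array was 2.60-fold above the CisR one, where 1.22% of compared genes were at least as far higher. CDH26, the other compared gene of that list, had a log2 difference of -0.32 in CisR and was under the floor in DoxR, at least 1.57-fold lower. The intestinal regulator CDX2 was under the floor on all arrays, at 46.2, 6.41 and 69.8.

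Desmosomal cadherins and the plaque. DSC2, or desmocollin, the widely expressed partner of desmoglein DSG2 in simple epithelia, had signals of 254, 666 and 521 by probe set 226817_at in the parental, CisR and DoxR arrays. Both sublines were above parental, 2.62-fold and 2.05-fold. A second probe set, 204751_x_at, read 129, 287 and 107. It was 2.22-fold higher in the CisR array but 1.20-fold lower in the DoxR one. The "x" in its name marks probes that may bind other transcripts. Of the others, 231033_at read 49.6, 84.1 and 36.3, and 204750_s_at stayed under the floor at 11.1, 20.9 and 37.3. DSC2 was therefore higher in the CisR array by each of 3 compared probe sets, 1 of them only at least 1.09-fold. In the DoxR array its 2 compared probe sets had opposite signs, and their median was 0.38, under 2-fold. With the floor raised to the 75th percentile of all values the DSC2 differences were at least 0.60 and 0.24, also under 2-fold.

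DSG2 had signals of 4164, 4352 and 4094 and log2 differences of 0.06 and -0.02 in CisR and DoxR, with 0.25 and 0.18 by its other probe set. The remaining desmosomal cadherins, DSC1, DSC3, DSG1, DSG3 and DSG4, were under the floor on all arrays. In the desmosome plaque, 7 of 8 genes were compared. Plakophilin PKP2, which links desmosomal cadherins to desmoplakin, had signals of 369, 1018 and 860 by 1 of its 2 probe sets, the other being under the floor. It was 2.76-fold and 2.33-fold higher in the CisR and DoxR arrays.

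PKP3 had signals of 753, 1338 and 1827. It was 1.78-fold higher in the CisR array and 2.43-fold higher in the DoxR one, and its second probe set had log2 differences of 0.81 and 1.14. Desmoplakin (DSP) differed by -0.24 and -0.08. The plaque list thus had 1 gene at least 2-fold higher in CisR and 2 in DoxR, none as far lower, and medians of 0.27 and 0.51. Over all compared genes 2.83% were at least 2-fold higher in CisR and 2.98% in DoxR.

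DSC2 follows CDH2 in the order of compared genes of chromosome 18, with uncompared genes left out of that order. Of the 175 genes of that chromosome compared in the CisR array, 90.3% were below parental, with a median log2 difference of -0.72. DSC2 was the 1 gene of them at least 2-fold higher (0.57%, against 2.83% of all compared genes). Another 41 genes (23.4%, against 2.58%) were at least 2-fold lower. In the DoxR array 65.4% of 179 genes were below parental, with a median of -0.18. There 4 were at least 2-fold higher (2.23%, against 2.98% of all genes) and 10 as far lower (5.59%, against 2.74%). Among the 174 genes compared in both sublines DSC2 had the highest value in CisR and ranked 3 from the highest in DoxR. CDH2 ranked 86 from the lowest in CisR and 47 from the lowest in DoxR. The 20 nearest compared genes had a median of -0.49 around either gene in CisR, and of -0.39 around CDH2 and -0.41 around DSC2 in DoxR. With those medians subtracted, CDH2 differed by -0.24 and -0.08 in the CisR and DoxR arrays, and DSC2 by 1.88 and 1.44. Around the other compared members the medians lay between -0.14 and 0.25 in both comparisons with parental.

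**Figure D2:**
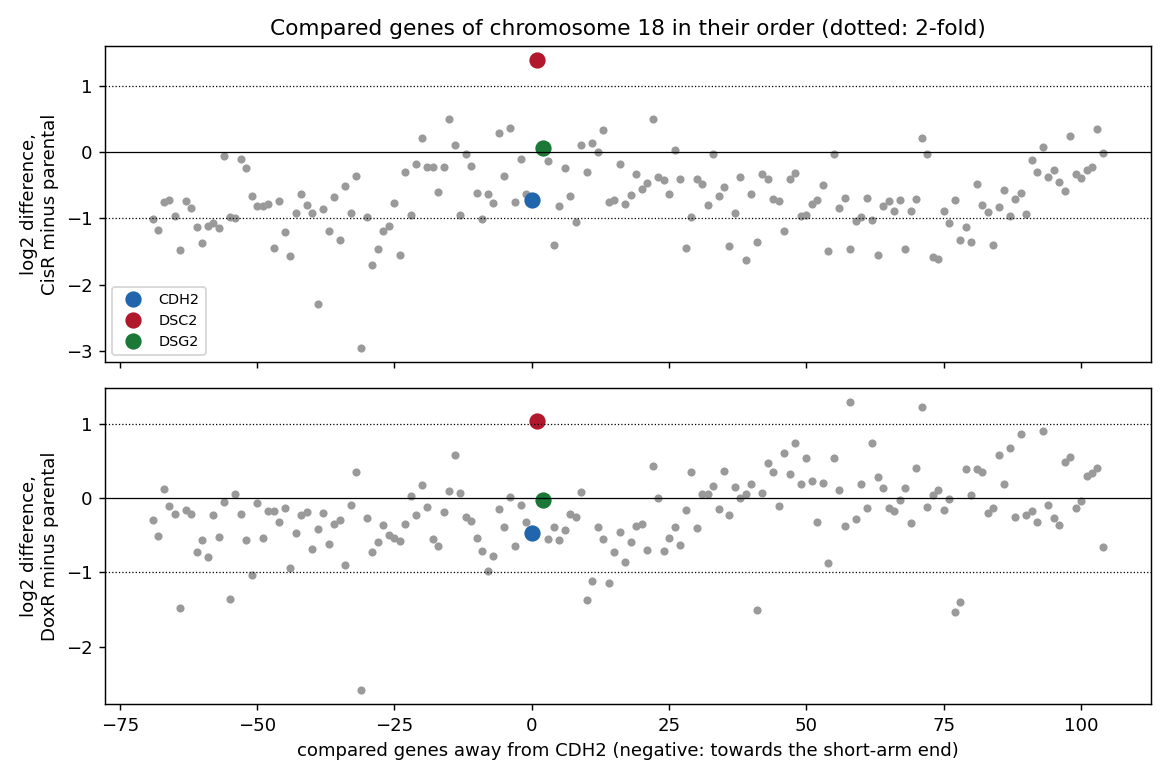
Log2 differences from parental of the 174 chromosome 18 genes compared in both sublines, in gene order from CDH2 (x axis, in compared genes). Points are genes, dotted lines mark 2-fold, and CDH2, DSC2 and DSG2 are coloured. CDH2 lies within the band of its neighbours, most of which are below parental, and DSC2, the next compared gene, lies above them at 1.39 and 1.03.

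Protocadherins. PCDH7, a non-clustered protocadherin of neural and other tissues, had signals of 1087, 992 and 266 in the parental, CisR and DoxR arrays by probe set 205534_at. The parental and CisR values were close to each other, and the DoxR value was 4.09-fold under parental. Of all compared genes, 0.381% were at least as far below. Probe set 205535_s_at read 157, 222 and 103, 1.52-fold lower than parental in the DoxR array. Probe set 228640_at read 132, 131 and 15.7, at least 1.71-fold lower, and 210273_at read 86.1, 70.4 and 24.7, at least 1.12-fold lower. All 4 compared probe sets pointed down in that array, 1 of them past 2-fold. Their median, limited by the floor, was -0.69 or lower, and 210941_at, at 43.7, 52.5 and 32.4, stayed under the floor.

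PCDH1, an adhesion protein of airway and other epithelia, had signals of 129, 106 and 216. The DoxR array was 1.67-fold above parental and the CisR array 1.22-fold below, so the sublines differed by 2.04-fold, close to the threshold. Its second probe set, at 8.22, 59.4 and 26.1, stayed under the floor. PCDH9, a protocadherin best known from the brain, had a parental signal of 114 and values under the floor in the CisR (55.6) and DoxR (47.1) arrays. This gave at least 1.49-fold lower in each, and its other 3 probe sets were under the floor throughout.

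Of 11 non-clustered protocadherins listed, 5 were compared in the CisR array and none passed 2-fold. In the DoxR array 3 were compared, all of them members, and PCDH7 was the 1 past 2-fold. The clustered beta protocadherins, 1-exon genes side by side on chromosome 5 that are best known for giving neurons their identity, had 6 and 5 of 16 compared. PCDHB2 had signals of 458, 567 and 184 and was 2.49-fold lower in the DoxR array. PCDHB5, at 207, 67.1 and 9.57, was at least 2.69-fold lower in both sublines. PCDHB6, at 311, 637 and 192, was 2.04-fold higher in CisR and 1.62-fold lower in DoxR. None of the compared beta genes was above parental in the DoxR array. These genes are close in sequence, and their probe sets can share signal.

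The large and cadherin-related genes had 9 of 20 compared with parental in each subline. CDHR2 and CDHR5, the protocadherin pair that joins the tips of microvilli, were the 2 past 2-fold in DoxR, and CDHR5 the 1 in CisR. CDHR2 had signals of 391, 549 and 1239 and was 1.40-fold higher in the CisR and 3.17-fold higher in the DoxR array. CDHR5 read 41.9, 259 and 240, at least 3.36-fold and at least 3.12-fold higher in the CisR and DoxR arrays, while another of its probe sets gave at least 0.10 log2 units in the latter. FAT1, a giant cadherin, had log2 differences of 0.48 and 0.04.

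**Figure D3:**
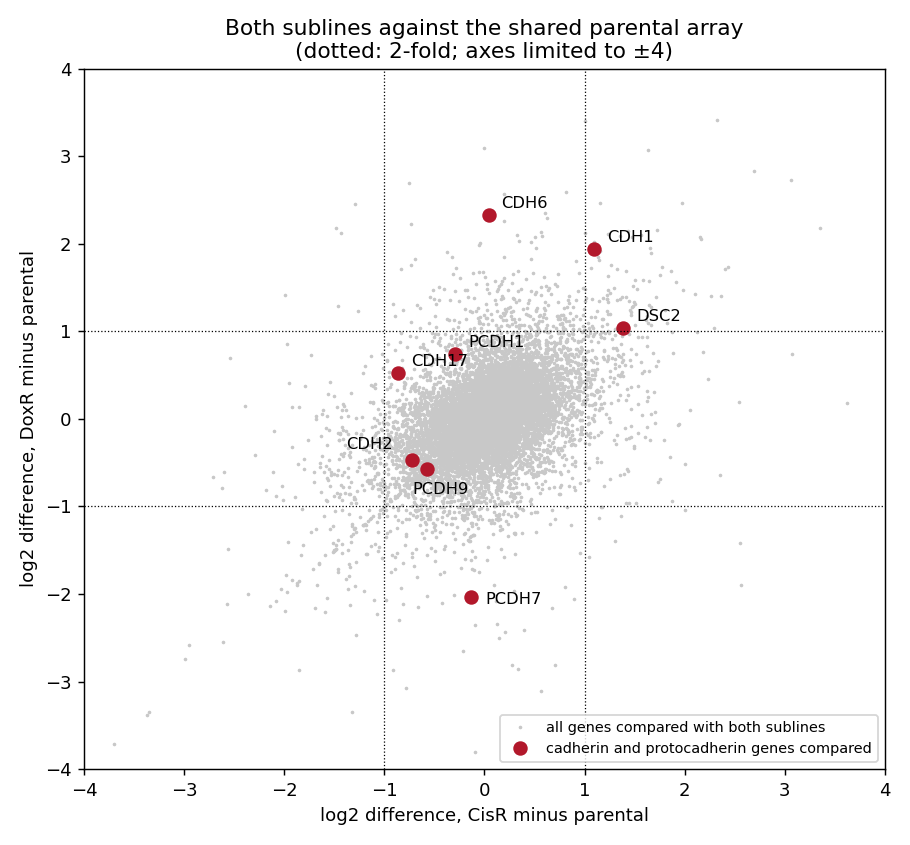
Log2 difference from parental of all genes compared in both sublines, CisR on the x axis and DoxR on the y axis, with the 8 compared members in red. CDH1 and DSC2 lie past 2-fold on both axes, and CDH6 (2.33) and PCDH7 (-2.03) on the DoxR axis alone. CDH17 and PCDH1 lie on opposite sides of parental, and both axes share the parental array.

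Catenins bind the tails of classical cadherins. Of 8 listed genes 7 had probe sets of their own and 3 were compared, none past 2-fold in either subline. Alpha-catenin CTNNA1, which links to actin, had log2 differences of 0.08 and -0.03 in the CisR and DoxR arrays. Beta-catenin CTNNB1 had -0.17 and -0.25, and plakoglobin JUP, which serves both junction types, 0.59 and -0.00. The 7 compared nectins and junction linkers had medians of -0.17 and -0.13, with none past 2-fold.

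Of 10 repressors of CDH1, 5 were compared and none passed 2-fold against parental, with medians of 0.10 and -0.21. ZEB1 had signals of 1332, 1428 and 1153 in the parental, CisR and DoxR arrays, and SNAI2 had 393, 431 and 272. SNAI1 read 82.6, 50.5 and 16.2, above the floor in the parental array alone. ZEB2 read 28.7, 91.7 and 82.5, and TWIST1 was under the floor throughout. Among epithelial transcription factors 6 of 13 were compared and none passed 2-fold against parental by its representing probe set. KLF4 had log2 differences of 0.88 and 1.13 in DoxR by its 2 probe sets, the latter past 2-fold. EHF was 2.33-fold lower in the DoxR than in the CisR array by its representing probe set. Its 3 compared probe sets ran from -1.22 to -0.49 log2 units. GRHL2 and ESRP1, epithelial regulators, were under the floor on all arrays.

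Of the enzymes that cut cadherins, 9 were compared in CisR and 10 in DoxR, and MMP7, or matrilysin, was the 1 past 2-fold. It had signals of 16859, 12932 and 7337 and was 2.30-fold lower in the DoxR array. The sheddase ADAM10 differed by -0.14 and -0.16. Of 9 listed genes of cadherin ubiquitination and endocytosis, NUMB, an endocytic adaptor, was the 1 past 2-fold against parental by representing probe sets. It read 101, 202 and 156, 2.00-fold higher in the CisR array. MDM2 had log2 differences of 0.20 and -0.25 by its representing probe set. The lowest of its 5 compared probe sets was at -1.69 or lower in each subline, a bound set by the floor.

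**Figure D4:**
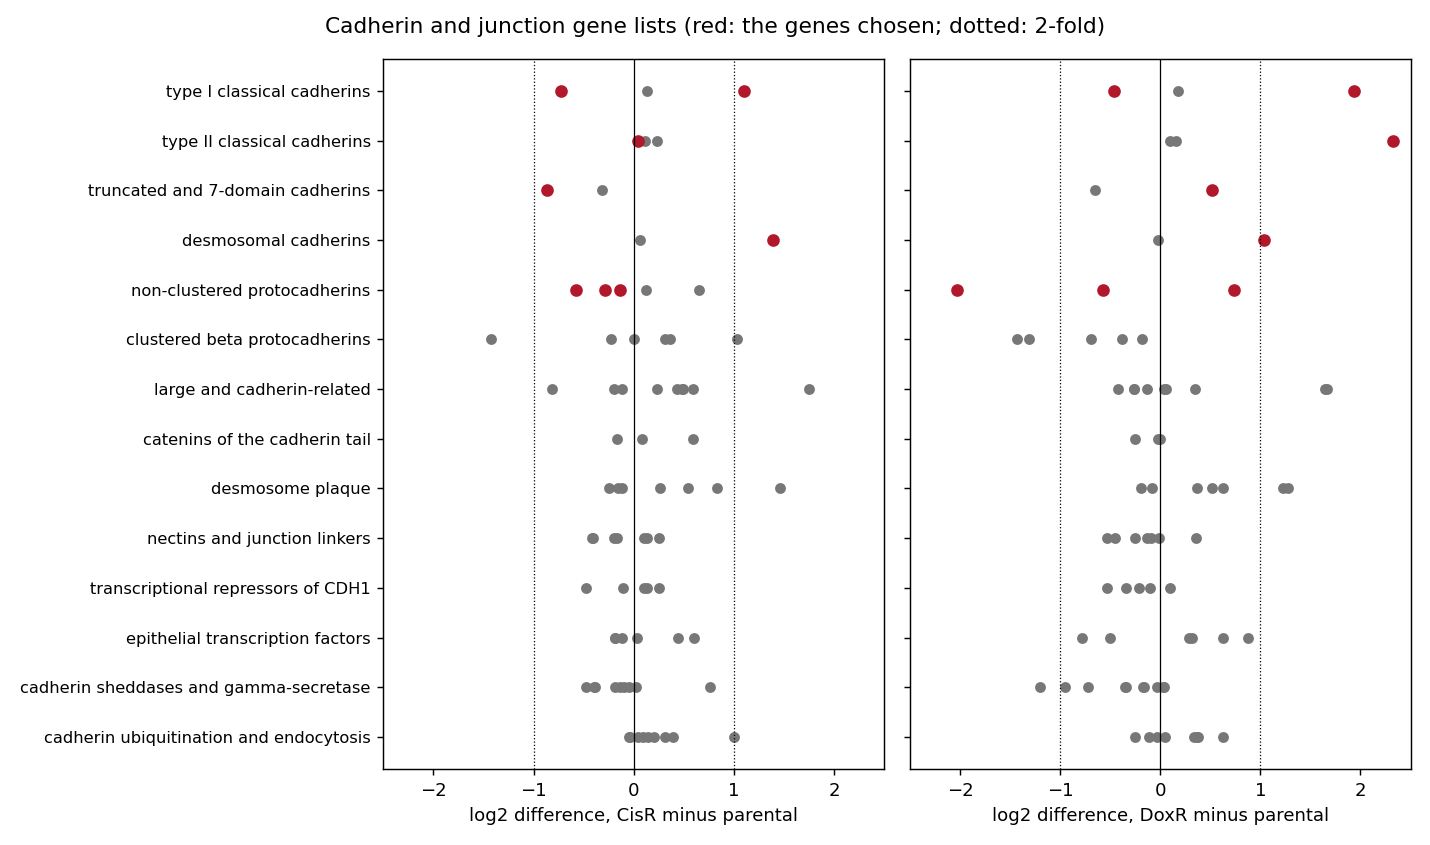
Log2 differences from parental of compared genes in 14 cadherin and junction lists, CisR on the left and DoxR on the right. Each point is a gene, red points are the members described here, and dotted lines mark 2-fold. Points of the catenins, nectins and junction linkers, CDH1 repressors, epithelial transcription factors and the list with CDH17 lie within 2-fold. Each other list holds at least 1 point past it in CisR or DoxR.

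The 3 genes whose pair of log2 differences lay nearest to that of CDH1, among 11125 genes above the floor on all arrays, were DNAJC12, MEGF6 and PTPRN2. Their Euclidean distances from CDH1 were 0.06, 0.10 and 0.14 log2 units over the 2 differences. DNAJC12 had signals of 446, 991 and 1683, MEGF6 of 139, 306 and 502 and PTPRN2 of 110, 244 and 387. In the DoxR array all 3 compared probe sets of DNAJC12, 1 of 2 of MEGF6 and 1 of 2 of PTPRN2 were past 2-fold. With 3 arrays many genes can fall near any given pattern. The claudins CLDN4 and CLDN7 of tight junctions were 3.61-fold and 2.79-fold higher in the DoxR array and 1.15-fold and 1.10-fold higher in the CisR one. Of the same epithelial list KRT7 was 3.22-fold lower in CisR by its representing probe set, with a log2 difference of 0.03 in DoxR, and KRT8, KRT18 and KRT19 were 1.13-fold to 1.45-fold higher than parental in both sublines.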

How the data were processed

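The authors deposited 1 intensity (signal) for each probe set on a linear scale, made with MAS5 per the submitters' processing notes; version and settings are not given in the sources used here. With the outer 2% at each end left out, all 3 arrays had a mean of 499.9, the form that global scaling gives. Of 54675 probe sets, 41097 had 1 gene symbol in the platform annotation, updated through Entrez identifiers in RefSeq's GRCh38.p14 gene table, which matched 99.9%; 1801 with several symbols were not used.

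Differences are of log2 values raised to the floor, and a gene was compared when at least 1 of the 2 arrays was above it (numpy 2.4.6, pandas 2.3.3). The code was checked on simulated arrays. With 1 array per line, the number of arrays limits precision and no p-value was computed. The members, the 19 lists and their tests were chosen with earlier results of these data known. Named genes were all members, up to 4 genes past 2-fold in each list and comparison, fixed catenins and repressors, and the 3 genes nearest to CDH1. Some that met the rule are not named. Genes outside it are named where they show the rest of a list. The 8 alternatives changed the floor, the representing probe set, the normalization or subtracted the 20 nearest genes' median.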

Additional observations from a re-analysis of the deposited data

Results flagged for a closer look

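CDH17 and PCDH1 lay on opposite sides of parental in the sublines, with a difference between the sublines of at least 2-fold. The DoxR minus CisR log2 difference was 1.38 for CDH17 and 1.03 for PCDH1. With 1 array per line the difference was not tested. CDH17 has a single probe set, and PCDH1 has 1 above the floor, with all 3 of its signals between 106 and 216, in the dimmest of 3 equal gene groups.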

How the results depend on the processing

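The counts of members past 2-fold depended on the floor and on the probe sets used. With the floor at the 75th percentile of all values, CisR against parental had 1 of 5 compared members past 2-fold (CDH1), in place of 2 of 8. The share of all genes past 2-fold fell too, from 5.41% to 2.73%. DoxR against parental had 2 of 6 (CDH1 and PCDH7) in place of 4 of 8, with all genes at 3.12% in place of 5.72%. Between the sublines 2 of 6 passed (CDH17 and PCDH7) in place of 4 of 7, with all genes at 3.82% in place of 6.36%. With probe sets of no suffix only, where CDH1 has none, the count for CisR against parental was 1 of 6, DSC2. Of all genes 5.51% passed there. With the median over a gene's probe sets the count for DoxR against parental was 2 of 8, CDH1 and CDH6, with all genes at 4.9%. DSC2 then had a log2 difference of 0.38 and PCDH7 one of -0.69, a bound that the floor sets, so a larger decrease is possible. With the floor at the 25th percentile PCDH9 also passed 2-fold, and without a floor PCDH9 and, in DoxR, CDH3 did, on low signals. Quantile normalization, median scaling and subtraction of the neighbouring genes' median kept the same members past 2-fold in all 3 comparisons. CDH1 stayed past 2-fold against parental in all 7 alternatives that gave it a value, from 1.07 to 1.22 in CisR and from 1.93 to 2.08 in DoxR. No called member changed sign. Low signals limit PCDH9, PCDH1 and most CDH6 probe sets.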
